A study of Homo sapiens with 8 samples.

Results

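Ribosome footprints on the mRNAs of 35 human genes for ribosome quality control, translation termination and mRNA surveillance were examined, out of 12235 genes listed in at least 1 of the 8 libraries. The genes were chosen by symbol and fell into 3 groups: 23 for ribosome collision and rescue, 3 for termination and 9 for nonsense-mediated decay (NMD). For each gene the transcript with the highest value was used, and 34 of the 35 genes were listed. ZNF598, the ubiquitin ligase that recognises collided ribosomes, matched none of the listed transcripts by its GENCODE release 44 transcript identifiers and was not analysed here.

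The cells were HEK293T, a human embryonic kidney line carrying the SV40 large T antigen. They were held overnight in sufficient medium (Suff) or in 1 of 3 deficient media, without arginine (Arg-), without leucine (Leu-) or without methionine (Met-). All media contained dialysed serum and were made from the same base lacking sulfur amino acids, histidine, leucine and arginine, with cysteine and the amino acids other than the missing one added back. Each medium was profiled once after pre-treatment with cycloheximide (CHX), which freezes elongating ribosomes, and once without it, which gave 1 library per condition.

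When a ribosome stalls and the next one runs into it, collision sensors mark the pair, splitting factors take the subunits apart, and a ligase complex tags the unfinished peptide left on the large subunit. At a normal stop codon, eRF1 reads the codon and eRF3 helps it to release the peptide. When termination occurs far upstream of the normal mRNA end, the UPF and SMG proteins direct the mRNA to decay. Translation and NMD are known to be lowered by the stress response that follows loss of an amino acid.

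The values were RPKM, coding reads scaled to the length of the coding sequence and to the depth of the library, and a ratio was log2((RPKM + 1)/(RPKM in Suff + 1)). A value is the share of a library's footprints on an mRNA, so more mRNA and more ribosomes per mRNA cannot be told apart. The paper reports that puromycin labelling of new protein fell in Arg-, Leu- and Met-, most in Met-. A higher share in a starved library therefore need not mean more protein made. With 1 library per condition no difference was tested, and the 95% intervals given with folds are exact binomial (Clopper-Pearson) intervals of the recovered reads and cover counting error only. The libraries held 1302523 to 3139745 coding reads without CHX and 538222 to 6434043 with CHX, and listed mRNAs down to 5 and 64 reads. Of 5 markers of the HEK293 line, NEFL, NEFM, INA and VIM were listed in all 4 libraries without CHX and PAX2 only in Leu- and Met-, and of 4 markers of other cell types only COL1A1 was listed, at 1.59 to 4.19 RPKM.

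Without CHX, where all 34 mRNAs were listed in every library, the largest group of differences was among the NMD factors in Met-. There, 6 of the 9 NMD mRNAs (66.7%) were at least 2-fold higher than in Suff, where 21.4% of 10653 mRNAs were at least 2-fold higher and 4.36% at least 2-fold lower with no minimum level. The 6 were SMG8, UPF2, SMG9, UPF1, SMG6 and UPF3B. The median log2 ratio of the 9 was 1.40, beside 0.39 for all mRNAs. With CHX, Met- listed only 1 of the 9, SMG5, at 0.89 beside a median of 0.89 for all mRNAs. That series cannot decide whether the difference of the NMD group in Met- recurs, because the mRNAs concerned were not listed. UPF1 and UPF3B needed at least 4.61 and 4.48 times their level in Suff with CHX to be listed in Met-. UPF2, SMG6, SMG8 and SMG9 were listed in neither Suff nor Met- with CHX. Without CHX, of the 22 collision and rescue mRNAs, 2 were at least 2-fold higher in Met- and 1 at least 2-fold lower, with a median of 0.41.

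Counted over the 34 members, 9 (26.5%) were at least 2-fold higher in Met- and 1 (2.94%) at least 2-fold lower, a share close to that of all mRNAs. In Arg-, 3 of 34 (8.82%) were at least 2-fold higher and 0 lower, beside 9.22% higher and 4.78% lower among 10743 mRNAs. In Leu-, 2 of 34 (5.88%) were at least 2-fold higher and 0 lower, beside 7.98% higher and 1.76% lower among 10772 mRNAs. The members' median log2 ratios were 0.28 in Arg-, 0.30 in Leu- and 0.59 in Met-, beside 0.07, 0.20 and 0.39 for all mRNAs. These 3 comparisons share the Suff library.

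With a minimum of 10 for the mean RPKM of the pair, 3 of 25 members were at least 2-fold higher in Arg-, beside 8.23% of all mRNAs, and 0 were lower, beside 5.95%. In Leu- it was 2 of 27, beside 6.85%, and 0 lower, beside 2.06%. In Met- it was 7 of 29, beside 20.2%, and 1 lower, beside 5.34%. SMG8, UPF2, NEMF, ANKZF1 and SMG1 lay below 10 RPKM in Suff and passed the minimum in Met- through the Met- library, as NEMF and SMG8 did in Arg- and Leu- and ANKZF1 in Leu-, so the counts with a minimum lend no weight to the difference.

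The median of all mRNAs that passed the minimum was itself shifted, by -0.02 in Arg-, 0.14 in Leu- and 0.32 in Met- on the log2 scale. Set to 0, that median left the share of higher mRNAs among those called 2-fold at 61.2% in Arg-, against 58.0% before, at 56.5% in Leu-, against 76.9%, and at 50.2% in Met-, against 79.1%. With the median set to 0 and no minimum level, 5 of the 9 NMD mRNAs were at least 2-fold higher in Met-, and UPF3B was no longer among them. In the same setting PELO was the only one of 22 collision and rescue mRNAs at least 2-fold higher, and the median of these 22 was 0.03. The share of all mRNAs in that setting was not counted, so neither count is read as particular to its group. With the minimum of 10 and the median at 0, 846 of 7884 mRNAs were at least 2-fold higher in Met- and 840 lower.

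**Figure D1:**
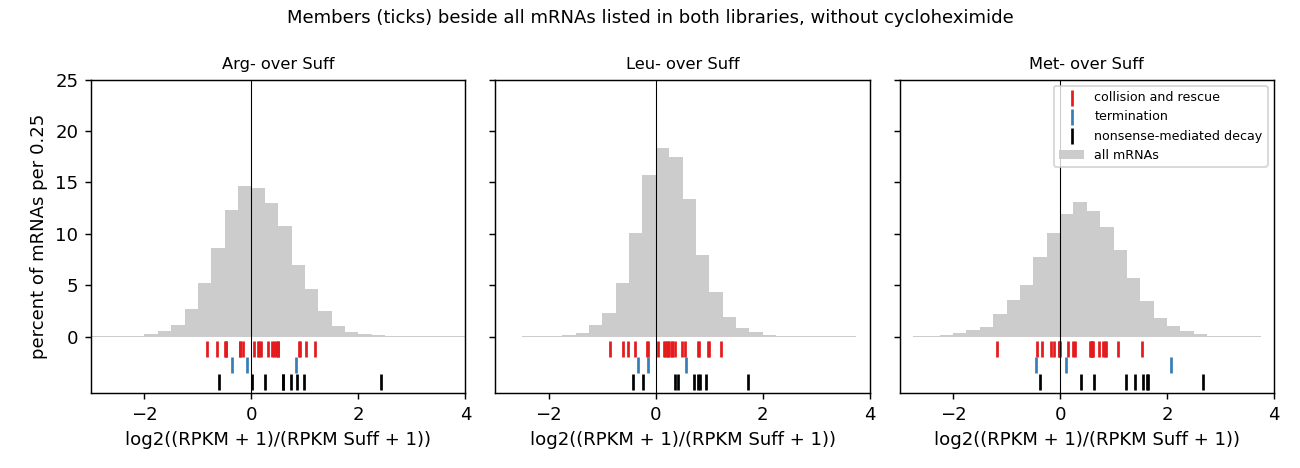
Distribution of log2 ratios for all mRNAs listed in both libraries without CHX (grey, percent of mRNAs per bin) with each member as a tick, in 3 rows for the 3 groups. Most NMD ticks (black) in Met- lie to the right of the bulk of all mRNAs, while the collision and rescue ticks (red) spread across it.

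In Suff without CHX the members covered more than 3 orders of magnitude. RACK1 was first at 5029 RPKM, followed by EDF1 at 530.1 and ETF1 at 243.6, and the last 3 were ASCC3 at 4.48, LTN1 at 2.87 and GSPT2 at 2.53. The group medians per kilobase were 33.8 RPKM for collision and rescue, 106.7 for termination and 14.2 for NMD. The summed RPKM of the 9 NMD mRNAs was 160.2 in Suff, 282 in Arg-, 256 in Leu- and 384 in Met-. The summed RPKM of the 3 termination mRNAs was 353 in Suff, and lower in the starved libraries, at 293 to 307. Without RACK1 and EDF1, the collision and rescue mRNAs summed to 769 in Suff, 824 in Arg-, 901 in Leu- and 944 in Met-.

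**Figure D2:**
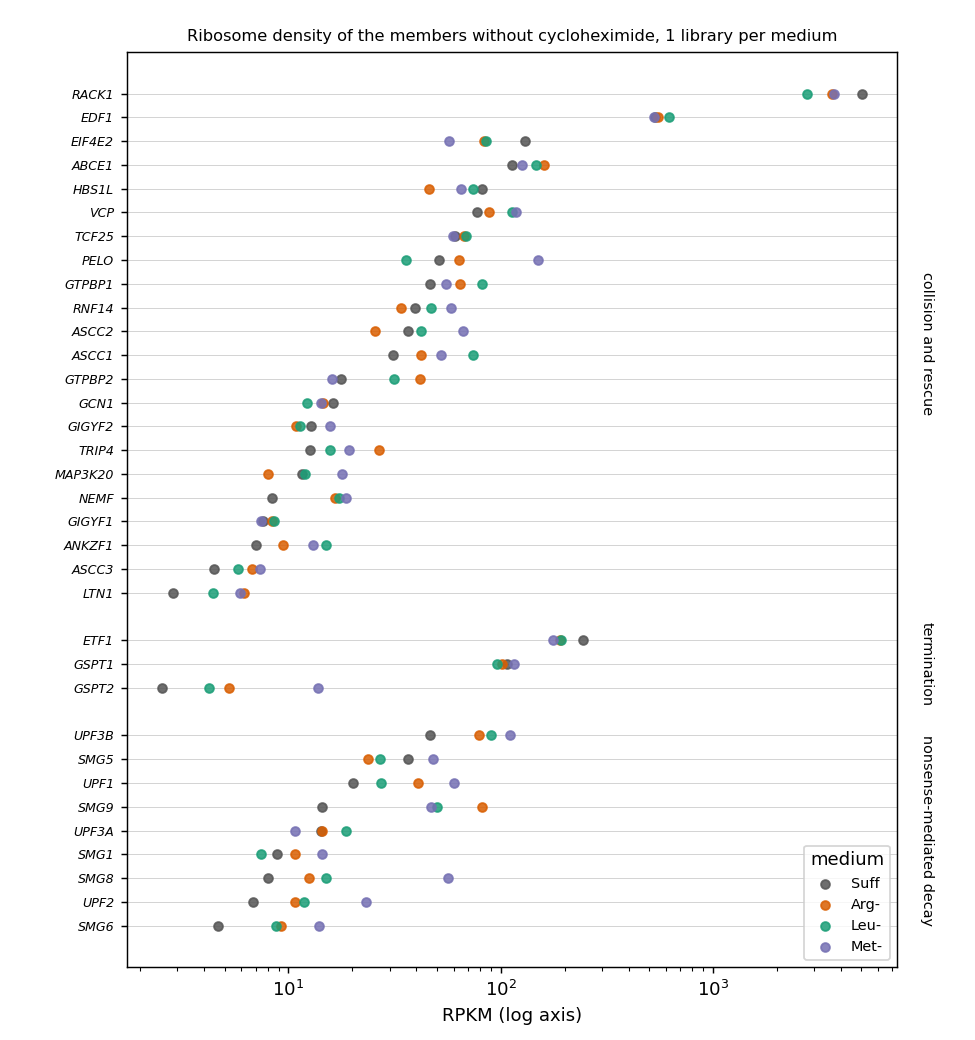
RPKM (log axis) of the 34 members in the 4 libraries without CHX, 1 point per library, ordered within each group by the level in Suff. Met- points stand to the right of the Suff points for SMG8, UPF1, UPF2, SMG6 and PELO, and to the left for EIF4E2.

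Among the sensors of stalled and collided ribosomes, no mRNA was at least 2-fold different in any starvation without CHX. RACK1, a protein of the small ribosomal subunit that serves as a platform at the collision interface, had 5029 RPKM in Suff, 3635 in Arg-, 2783 in Leu- and 3726 in Met-. It was highest in Suff and lowest in Leu-, where Suff exceeded it 1.81-fold (1.75 to 1.87). EDF1, which binds collided ribosomes and recruits translational repressors, stayed between 529 and 622 RPKM. GCN1, the large scaffold that activates the kinase GCN2 at stalled ribosomes, ran from 12.3 RPKM in Leu- to 16.3 in Suff. MAP3K20, which encodes the kinase ZAK that signals from collisions, had 11.5 RPKM in Suff, 8.01 in Arg-, 11.95 in Leu- and 17.9 in Met-, on 31 to 87 reads. RNF14, a ubiquitin ligase for ribosomes with trapped factors, ran from 34.0 in Arg- to 58.2 in Met-.

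The 4 subunits of the ASC-1 complex, which splits collided ribosomes, did not share 1 pattern. ASCC1 had 31.2 RPKM in Suff, 42.3 in Arg-, 74.4 in Leu- and 52.3 in Met-. It was highest in Leu-, 2.38-fold above Suff (1.85 to 3.08). TRIP4 had 12.6 RPKM in Suff, 26.7 in Arg-, 15.7 in Leu- and 19.3 in Met-. It was highest in Arg-, 2.12-fold above Suff (1.51 to 2.98). ASCC2 was lowest in Arg-, with a log2 ratio of -0.49, and highest in Met-, at 0.85. ASCC3, the helicase of the complex, had log2 ratios of 0.50 in Arg-, 0.30 in Leu- and 0.60 in Met-, at 4.48 to 7.32 RPKM.

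PELO and HBS1L encode the partners that enter the empty A site of a stalled ribosome and start its rescue, and their mRNAs moved apart in Arg- and Met-. PELO had 51.4 RPKM in Suff, 63.8 in Arg-, 35.8 in Leu- and 149.8 in Met-. Its transcript, placed like the others named here by GENCODE release 44 on GRCh38, lies on the plus strand of chromosome 5 from 52787916 to 52804044. It was highest in Met-, 2.91-fold above Suff (2.39 to 3.56), and lowest in Leu-. HBS1L had 82.0 RPKM in Suff, 45.9 in Arg-, 73.8 in Leu- and 65.0 in Met-, so it was highest in Suff. The ratio of PELO to HBS1L RPKM was 0.627 in Suff (0.528 to 0.743), 1.39 in Arg- (1.08 to 1.78), 0.485 in Leu- (0.360 to 0.644) and 2.30 in Met- (1.88 to 2.83). The Met- interval lay above those of the other 3 libraries, and the Leu- interval overlapped that of Suff, with both mRNAs lower in Leu- than in Suff. ABCE1, the ATPase that splits the subunits afterwards, had log2 ratios of 0.50 in Arg-, 0.37 in Leu- and 0.15 in Met-.

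GTPBP1 and GTPBP2 are related GTPases linked to the relief of stalled ribosomes. GTPBP1 had 46.6 RPKM in Suff, 64.2 in Arg-, 81.4 in Leu- and 55.0 in Met-. GTPBP2 had 17.6 RPKM in Suff, 41.5 in Arg-, 31.4 in Leu- and 16.1 in Met-. GTPBP2 was thus higher in Arg- and Leu- and near the Suff level in Met-, and in Arg- it was 2.36-fold above Suff (1.79 to 3.11). The ratio of GTPBP1 to GTPBP2 was lowest in Arg-, at 1.55 (1.23 to 1.95), and 2.65 (2.10 to 3.35) in Suff.

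The ribosome-associated quality control complex handles peptides stuck on the large subunit. Of its mRNAs, NEMF, LTN1 and ANKZF1 were among the low members, while TCF25 and VCP were not. NEMF, which binds the stuck peptide's ribosome and recruits the ligase, had 8.38 RPKM in Suff, 16.5 in Arg-, 17.4 in Leu- and 18.8 in Met-. All 3 starved libraries were above Suff, by 1.97-fold (1.44 to 2.69), 2.07-fold (1.51 to 2.84) and 2.24-fold (1.63 to 3.08). With 1 added to each RPKM it passed 2-fold in Met- alone. LTN1, the ligase, had log2 ratios of 0.89 in Arg-, 0.49 in Leu- and 0.84 in Met-, on 36 to 54 reads. ANKZF1, which cuts the peptide from its tRNA, had 0.38 in Arg-, 0.999 in Leu- and 0.81 in Met-, and its Leu- value was just under the 2-fold limit. TCF25, another subunit, stayed between 59.7 and 68.7 RPKM, and VCP, the ATPase that extracts tagged peptides, was lowest in Suff at 77.1 and highest in Met- at 118.6.

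EIF4E2, a cap-binding protein that represses initiation on mRNAs with stalled ribosomes, was the only member at least 2-fold lower in Met- without CHX. It had 130.3 RPKM in Suff, 83.3 in Arg-, 85.1 in Leu- and 57.2 in Met-. All 3 starved libraries were below Suff, and Suff exceeded Met- 2.28-fold (1.70 to 3.09) on 302 and 55 reads. The transcript spans 232550689 to 232569210 on the plus strand of chromosome 2. Its partners did not show this order. GIGYF2 had 12.8 RPKM in Suff, 10.8 in Arg-, 11.3 in Leu- and 15.7 in Met-, and GIGYF1 stayed between 7.41 and 8.60, with 7.58 in Suff, 8.39 in Arg-, 8.60 in Leu- and 7.41 in Met-. The ratio of EIF4E2 to GIGYF2 was 10.2 (8.40 to 12.4) in Suff and 3.65 (2.54 to 5.20) in Met-.

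**Figure D3:**
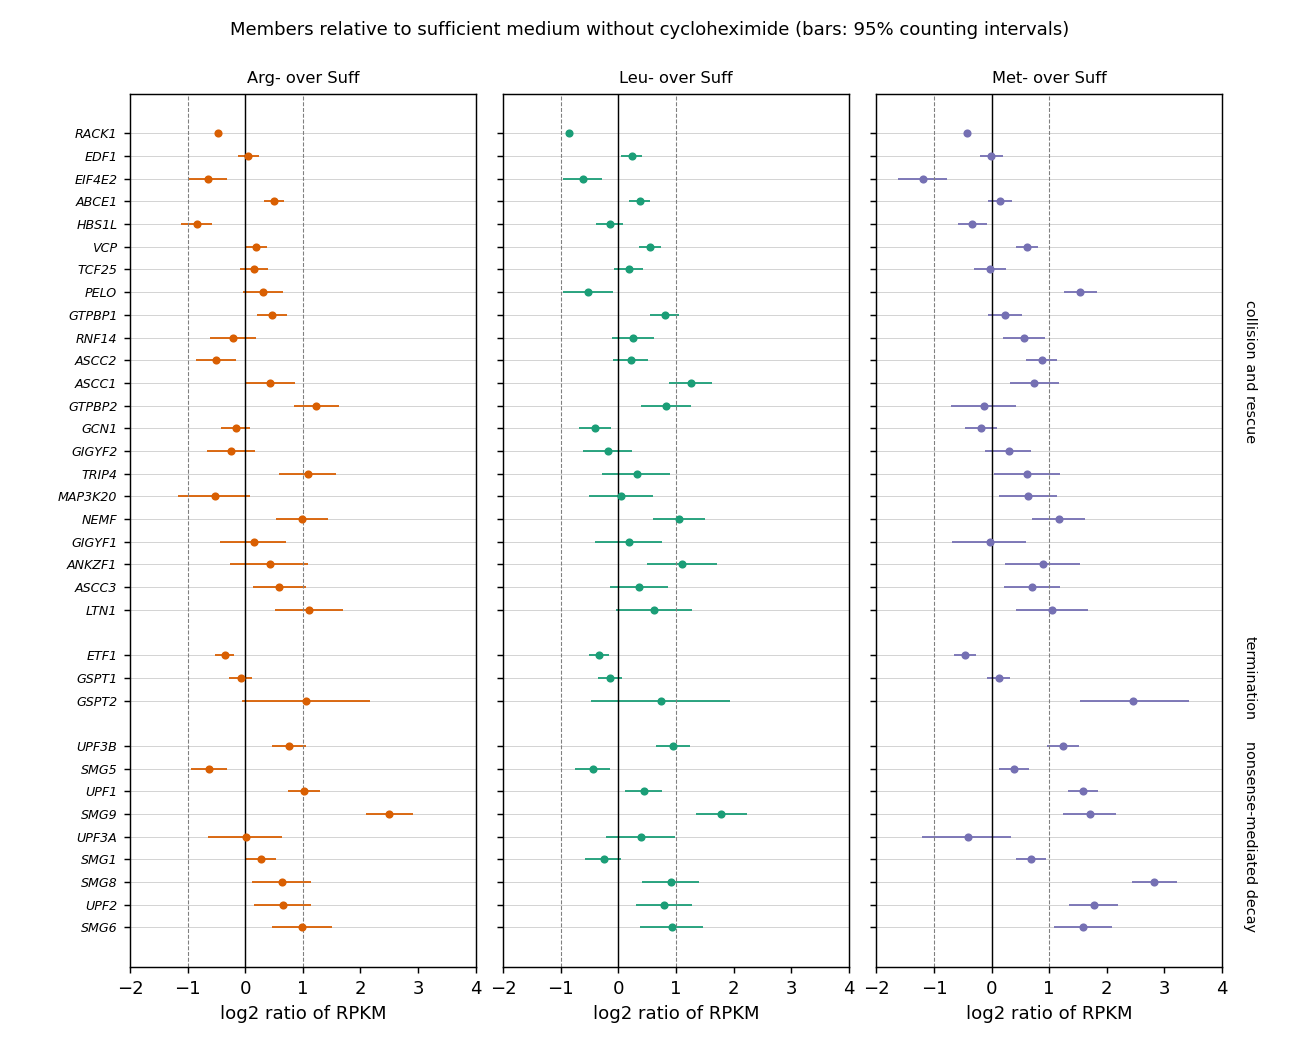
Log2 ratio of RPKM (nothing added) for each member in the 3 starvations over Suff without CHX, with 95% counting intervals as bars and dashed lines at 2-fold. In Met-, the intervals of 20 of the 34 members lie above equal levels and those of 4 below, and SMG8 stands farthest to the right. Such intervals were not counted for all mRNAs.

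The counting interval of the fold lay above 1 for 15 of 34 members in Arg-, 14 in Leu- and 20 in Met-, and below 1 for 6, 6 and 4. For the others it held 1, and at this depth no difference was detectable. Such intervals were not counted for all mRNAs, so these counts are not read as particular to the members. By direction alone, 23 of 34 members were above Suff in Arg-, 24 in Leu- and 24 in Met-. Among all mRNAs it was 54.4%, 65.0% and 69.2%. Among the 4 libraries without CHX, Met- held the highest value for 17 of the 34 members, beside 47.6% of 10205 mRNAs listed in all 4, so this count was close to that of all mRNAs.

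Of the release factor mRNAs, ETF1 and GSPT1 were under 2-fold different in every starvation without CHX. ETF1, which encodes eRF1, had 243.6 RPKM in Suff, 189.9 in Arg-, 192.7 in Leu- and 177.0 in Met-. It was lower in all 3 starved libraries, and Suff exceeded Met- 1.38-fold (1.21 to 1.57). GSPT1, the main eRF3, had 106.7 RPKM in Suff, 101.2 in Arg-, 96.0 in Leu- and 115.9 in Met-, and all 3 intervals of its fold held 1. The ratio of ETF1 to GSPT1 was 2.28 (2.07 to 2.53) in Suff and 1.53 (1.30 to 1.80) in Met-.

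GSPT2 is an intronless copy of eRF3 on chromosome X. It had 2.53 RPKM in Suff, 5.26 in Arg-, 4.25 in Leu- and 13.8 in Met-, on 15, 16, 12 and 34 reads. Met- was the highest, 5.46-fold above Suff (2.90 to 10.8), but the mean RPKM of that pair lay under 10. Because the coding sequences of GSPT1 and GSPT2 are 88.5% identical over 1860 aligned bases, a stretch is shown to illustrate how a footprint is assigned to one or the other. The stretch of 60 bases, positions 205 to 264 of the GSPT1 coding sequence and 154 to 213 of that of GSPT2, was read from GENCODE release 44, and capitals mark the 3 bases that differ.
GSPT1: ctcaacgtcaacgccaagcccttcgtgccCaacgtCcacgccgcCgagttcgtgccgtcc
GSPT2: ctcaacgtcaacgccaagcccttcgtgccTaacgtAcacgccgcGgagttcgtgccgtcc
A 28-base read from the first bases of this stretch would match both mRNAs and would be dropped as not unique. Of all 28-base windows, 4.79% of those of GSPT2 and 6.26% of those of GSPT1 occurred in another gene.

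NMD begins with UPF1, the RNA helicase at its centre. UPF1 had 20.1 RPKM in Suff, 40.8 in Arg-, 27.2 in Leu- and 60.5 in Met-. All 3 starved libraries were above Suff, with folds of 2.03 (1.68 to 2.46), 1.35 (1.08 to 1.68) and 3.01 (2.50 to 3.62). UPF2, which bridges UPF1 and UPF3, had 6.84 RPKM in Suff, 10.7 in Arg-, 11.9 in Leu- and 23.3 in Met-. It was lowest in Suff and highest in Met-, which was 3.41-fold above Suff (2.55 to 4.58). The ratio of UPF1 to UPF2 stayed between 2.29 and 3.81, and the intervals of Suff and Met- overlapped, at 2.27 to 3.84 and 2.08 to 3.25.

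UPF3A and UPF3B are paralogs that link UPF2 to the exon junction complex, and UPF3B is the more active one in NMD. UPF3B, on the minus strand of chromosome X (119834022 to 119852963), had 46.5 RPKM in Suff, 78.7 in Arg-, 89.7 in Leu- and 110.0 in Met-. All 3 starved libraries were above Suff, and Met- was 2.37-fold above it (1.94 to 2.88). UPF3A had 14.2 RPKM in Suff, 14.3 in Arg-, 18.7 in Leu- and 10.7 in Met-, on 20 to 64 reads, and all 3 intervals of its fold held 1. The ratio of UPF3B to UPF3A was 3.26 (2.46 to 4.39) in Suff, 5.50 (3.78 to 8.22) in Arg-, 4.80 (3.40 to 6.93) in Leu- and 10.2 (6.47 to 17.1) in Met-. Of the 28-base windows of UPF3A, 66.4% also occurred in other genes, led by its pseudogenes, and 0% in protein-coding transcripts of other genes. Whether the authors aligned to those pseudogenes is not known, so whether reads from these windows were dropped was not tested. Among the other members this share was highest for ABCE1, ETF1 and SMG1, at 51.0%, 38.8% and 30.0%.

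SMG1 is the kinase that phosphorylates UPF1, and SMG8 and SMG9 form the unit that restrains it. SMG9, on the minus strand of chromosome 19 (43727983 to 43754962), had 14.5 RPKM in Suff, 81.8 in Arg-, 50.01 in Leu- and 47.2 in Met-. It was at least 2-fold higher in all 3 starvations, by 5.66-fold (4.30 to 7.52), 3.46-fold (2.55 to 4.71) and 3.26-fold (2.37 to 4.49), and its largest value was in Arg-. SMG8, on the plus strand of chromosome 17 (59209400 to 59215239), had 8.03 RPKM in Suff, 12.5 in Arg-, 15.0 in Leu- and 56.5 in Met-. Met- stood apart from the other 3, 7.04-fold above Suff (5.39 to 9.28), on 219 and 75 reads, the largest fold of any member without CHX. SMG1 had log2 ratios of 0.25 in Arg-, -0.23 in Leu- and 0.63 in Met-.

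The partner mRNAs SMG8 and SMG9 therefore had different orders across the media. Their RPKM ratio was 0.555 (0.396 to 0.779) in Suff, 0.153 (0.113 to 0.205) in Arg-, 0.301 (0.219 to 0.410) in Leu- and 1.20 (0.938 to 1.54) in Met-. SMG9 was above SMG8 in Suff, Arg- and Leu-, and the interval of Met- held equal levels.

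Of the factors that act on phosphorylated UPF1, SMG6, the endonuclease, had 4.64 RPKM in Suff, 9.18 in Arg-, 8.78 in Leu- and 13.9 in Met-. All 3 starved libraries were above Suff, and Met- was 2.99-fold above it (2.11 to 4.25), with a pair mean under 10. SMG5, an adaptor that recruits deadenylation and decapping, had log2 ratios of -0.61 in Arg-, -0.43 in Leu- and 0.39 in Met-. Unlike the other NMD mRNAs, it was below Suff in both Arg- and Leu-, at 36.5 RPKM in Suff, 23.6 in Arg-, 26.9 in Leu- and 48.1 in Met-.

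With 1 added to each RPKM and no minimum, SMG9 was the NMD mRNA counted as 2-fold higher in Arg- and Leu-, 1 of 9 (11.1%) in each, beside 9.22% and 7.98% of all mRNAs. UPF1 in Arg-, 2.03-fold above Suff on plain RPKM, had a log2 ratio of 0.99 on that scale and fell just short. The group medians were 0.58 and 0.72, beside 0.07 and 0.20 for all mRNAs. With the all-mRNA median set to 0, SMG9 was again the NMD mRNA counted in Arg- without a minimum, and UPF1 joined it with the minimum of 10.

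**Figure D4:**
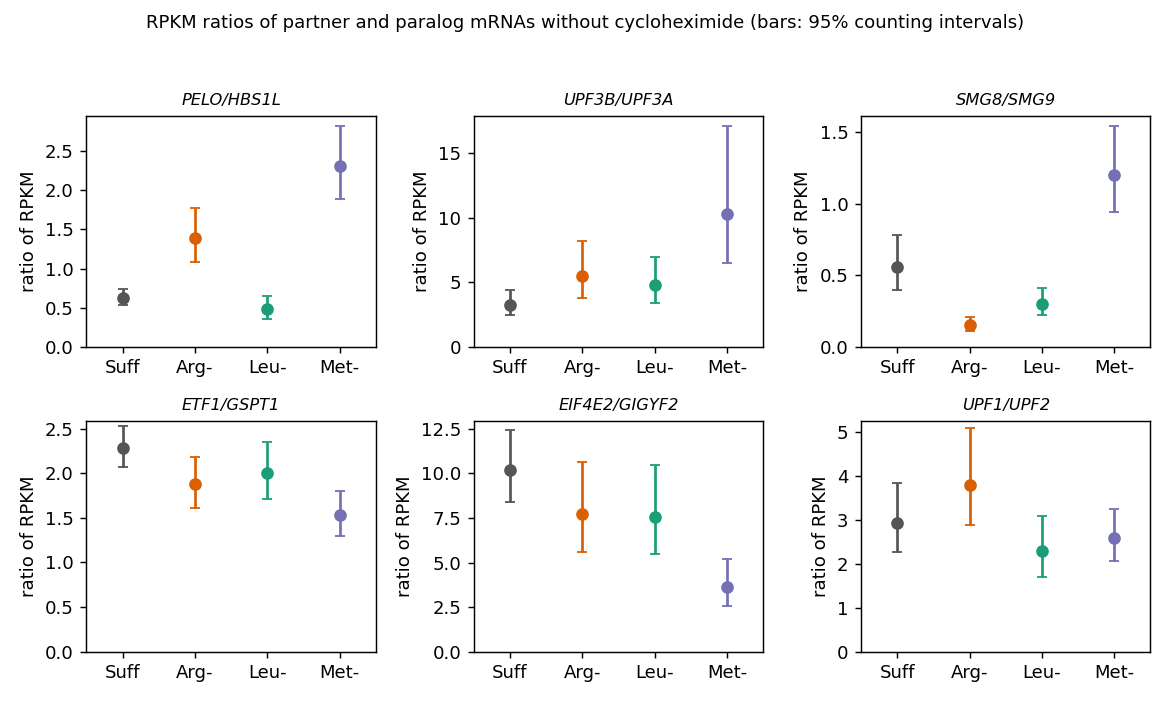
Ratio of RPKM for 6 pairs of partner or paralog mRNAs in the 4 libraries without CHX, with 95% counting intervals as bars and axes starting at 0. Met- has the highest PELO/HBS1L, UPF3B/UPF3A and SMG8/SMG9 ratios and the lowest ETF1/GSPT1 and EIF4E2/GIGYF2 ratios, while UPF1/UPF2 intervals overlap between Suff and Met-.

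Genes of neighbouring pathways were taken from lists chosen with earlier results of these data known, so their counts are descriptive only. They were counted without CHX and with no minimum. There, 9.22% of all mRNAs were at least 2-fold higher in Arg-, 7.98% in Leu- and 21.4% in Met-. At least 2-fold lower were 4.78% of all mRNAs in Arg-, 1.76% in Leu- and 4.36% in Met-. The matching shares with the all-mRNA median set to 0 were not counted. Among 12 listed further NMD factors and exon junction proteins in Met-, only DHX34 was at least 2-fold higher and RBM8A at least 2-fold lower, with a median of 0.12, beside 1.40 for the 9 NMD members. With the all-mRNA median set to 0, 0 were higher and 2 lower. In Arg- 0 and in Leu- 1 of the 12, PNRC2, was at least 2-fold higher, with medians of -0.09 and 0.02.

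Among 14 mRNAs of general cytoplasmic decay enzymes, 7 were at least 2-fold higher in Met- and 1 lower, with a median of 1.04. With the all-mRNA median set to 0, 2 of the 14, CNOT4 and EDC3, were higher, and the median was 0.65. In Arg- 3 of these 14 were higher and 1 lower, with a median of 0.78, and 2 were higher with that median at 0. In Leu- SKIC3 alone was higher, with a median of 0.66, and was no longer counted with the all-mRNA median at 0. CNOT4, a ligase of the deadenylase complex, had log2 ratios of 1.21 in Arg-, 0.96 in Leu- and 2.32 in Met-. SKIC3, a scaffold of the Ski complex that feeds the exosome, had 0.60, 1.02 and 1.10, and its partner SKIC8 had -1.22, -0.49 and -1.03.

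Among 13 ribosome ubiquitin and UFM1 enzymes, 4 were at least 2-fold higher in Met-, 2 in Arg- and 1 in Leu-, with medians of 0.49, 0.24 and 0.22. With the all-mRNA median set to 0, the counts of higher mRNAs were 2 in Met-, G3BP1 and UFL1, 2 in Arg- and 0 in Leu-, and 1 was lower in Arg-. UFL1, the ligase that attaches UFM1 to the ribosome, had 1.50 in Arg-, 1.05 in Leu- and 1.40 in Met-, and only its Leu- call was lost in that setting. Of 7 cofactors of VCP, UFD1 alone was at least 2-fold different, lower in Met- at -1.01, and 2 were lower there with the all-mRNA median at 0. Their medians were -0.28 in Arg-, -0.07 in Leu- and -0.10 in Met-.

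Of 10 listed mRNAs known to be NMD targets, 7 were at least 2-fold higher in Arg-, 7 in Leu- and 8 in Met-, with medians of 2.19, 2.12 and 1.42. DDIT3, ATF3, ATF4, SLC7A11, SESN2 and TRIB3 were in all 3 counts and GADD45A in those of Arg- and Leu-. With the all-mRNA median set to 0, the Met- count fell to 6, without ATF3 and TBL2, and the other counts stayed at 7. Most of these are also genes of the amino acid response, and the part of NMD in their levels was not tested.

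The coding sequences of the members differed little from all listed mRNAs in the starved amino acids. Methionine made up a median of 2.15% of member codons, beside 2.12% over 11449 mRNAs, leucine 9.50%, beside 9.75%, and arginine 5.89%, beside 5.65%. Members were longer, with a median of 680 codons beside 480, and the 9 NMD mRNAs had a median of 1016. Across the 34 members, which are not independent replicates and share each library, the log2 ratio and the share of the missing amino acid had a Spearman rho of -0.02 in Arg-, -0.03 in Leu- and 0.03 in Met-. Length and the ratio in Met- had a rho of 0.31. SMG9 had the highest methionine share of the NMD mRNAs, 3.65%, and UPF3A and UPF3B the highest arginine shares, 12.4% and 11.8%.

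The letters TGATGNAA, the core shared by many amino acid response elements bound by ATF4, were searched on both strands of 300-base windows at RefSeq gene starts. They occurred in 3.62% of 35116 windows and in 0 of 45 windows of 31 members.

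With CHX fewer members were listed, 19 in Suff, 31 in Arg-, 31 in Leu- and 8 in Met-, since these files began at 64 reads and Met- held 538222 reads. CHX, sequencing depth and the authors' processing all differed between the series and cannot be told apart. Of members with a mean RPKM of at least 10, 6 of 17 were at least 2-fold higher in Arg- and 0 lower, beside 16.6% and 19.7% of 5074 mRNAs. In Leu- it was 5 of 16 and 0 lower, beside 12.1% and 7.28% of 5208 mRNAs. In Met- it was 4 of 7 and 0 lower, beside 46.7% and 9.79% of 1890 mRNAs. Of those 4, GCN1, GTPBP1 and GSPT1 needed at least 14.8, 59.2 and 62.2 RPKM to be listed in Met-, which was 2.98, 2.48 and 2.29 times their level in Suff, so the listing limit fixed these 3 calls and nothing is read from them. With the median of all mRNAs set to 0, the share of higher mRNAs among those called moved from 45.7% to 63.4% in Arg-, from 62.4% to 59.7% in Leu- and from 82.7% to 47.5% in Met-. Those medians were -0.23, 0.02 and 0.89.

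Among members listed in Suff with CHX, UPF3B had the largest folds in Arg- and Leu-. It had 18.3 RPKM in Suff, 133.8 in Arg- and 97.4 in Leu-, folds of 7.30 (5.70 to 9.47) and 5.31 (4.15 to 6.90), and was not listed in Met-, where its level was below 82.1. GSPT1 was higher in Arg- and Leu- by 2.91 and 2.17-fold, with 27.2 RPKM in Suff, 79.2 in Arg-, 59.0 in Leu- and 86.5 in Met-. GTPBP1 was higher in Arg- and Leu- by 2.76 and 3.00-fold, with 23.9 RPKM in Suff, 66.1 in Arg-, 71.9 in Leu- and 79.6 in Met-. Neither GSPT1 nor GTPBP1 reached 2-fold in Arg- or Leu- without CHX.

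ABCE1 was higher with CHX by 3.59-fold in Arg- (2.90 to 4.48) and 2.39-fold in Leu- (1.93 to 2.99). PELO was 2.28-fold and RACK1 2.18-fold higher in Arg-, and TCF25 2.05-fold higher in Leu-. In Met-, ASCC2 had 607 RPKM beside 47.6 in Suff, 70.05 in Arg- and 88.6 in Leu-, a fold of 12.7 (11.1 to 14.7). Its listing limit in Met- was 52.4 RPKM, 1.10 times its level in Suff. Without CHX ASCC2 in Met- was 1.83-fold above Suff.

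For mRNAs not listed in Suff with CHX, only a lower limit of the fold can be given, from the 64 reads that a listed mRNA needed. SMG9 had 76.0 RPKM in Arg- and 22.4 in Leu-, at least 4.74-fold and 1.40-fold higher. NEMF was at least 2.11-fold higher in Arg-. GIGYF1 was listed in Met- at 46.7 RPKM, and no fold is given because the listing limit was higher there than in Suff. SMG8 was listed in Arg- alone, at 7.25 RPKM, and in Met- its level was below 40.0. ASCC1 and GSPT2 were listed in no CHX library, and UPF3A in Leu- alone, at 9.80.

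For the same starvation, 0 of the members with values in all 4 libraries concerned were at least 2-fold higher in both series, beside 2.45% of 5056 mRNAs in Arg-, 1.98% of 5213 in Leu- and 10.2% of 1811 in Met-. SMG9 in Arg-, 5.66-fold higher without CHX and at least 4.74-fold higher with it, is outside this count because Suff with CHX did not list it. Of 19 members with both values in Arg-, 8 (42.1%) were above Suff in both series, 3 (15.8%) below in both, and 8 (42.1%) differed in direction, beside 26.2%, 44.7% and 29.1% of all mRNAs. In Leu- these counts were also 8, 3 and 8 of 19, beside 37.3%, 33.2% and 29.5%. In Met- they were 4, 1 and 2 of 7, beside 49.6%, 20.8% and 29.5%, in a library where the listing limit kept low values out. EIF4E2 was below Suff in Arg- and Leu- in both series, with log2 ratios with CHX of -0.83 and -0.94. RACK1, ETF1 and GSPT1 were below Suff in Arg- and Leu- without CHX and above it with CHX. The highest transcript of EIF4E2, ETF1, EDF1, TCF25, GIGYF2 and UPF1 was a different one with CHX than without it. For these genes the series were therefore compared on different transcripts.

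**Figure D5:**
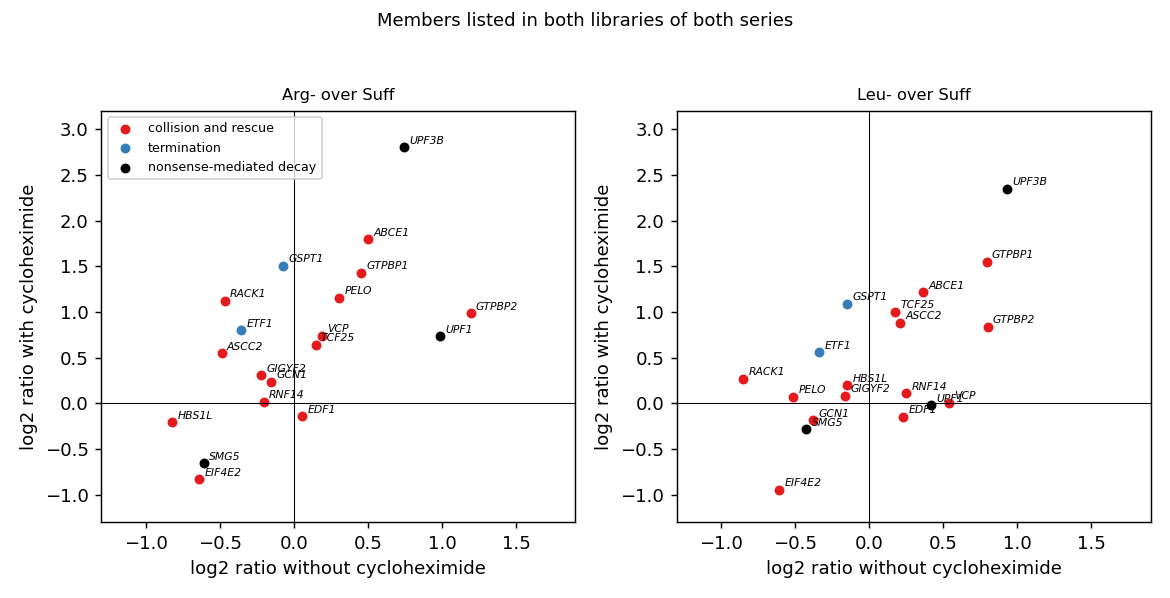
Log2 ratio over Suff with CHX (vertical axis) against that without CHX (horizontal axis) for the 19 members listed in both libraries of both series, for Arg- and Leu-, 1 point per member. UPF3B is the top point in both panels, EIF4E2 and SMG5 lie at the lower left, and GSPT1, ETF1 and RACK1 lie at the upper left. For EIF4E2, ETF1, EDF1, TCF25, GIGYF2 and UPF1 the transcript differs between the axes.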

How the data were processed

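Ribosome-protected fragments of HEK293T cells were profiled in 4 media with and without CHX, 8 libraries in all and 1 per condition. The authors deposited RPKM per Ensembl transcript; per the study's methods they trimmed adaptors, kept reads of a set length, trimmed bases with Trimmomatic, aligned to the GRCh38 transcriptome with Bowtie without mismatches and kept unique reads. The submitters' processing notes name cutadapt and Bowtie; versions and the annotation release are not given in the sources used here. Transcripts were named through GENCODE release 44, which matched 96.7% to 97.1% of identifiers per library. The highest transcript per gene was used, with a pseudocount of 1. Counts with CHX, and others where stated, required a mean of at least 10 RPKM over the pair, and groups and neighbouring lists without CHX had none. Each RPKM times coding length was a whole number of reads, within 0.01, for 97.2% to 97.4% of transcripts, which gave the reads behind each value. No count test was run, since each condition has 1 library. PCR reads without molecular identifiers are not independent molecules. The steps were tested on simulated reads. RPKM in every library is given for members at least 2-fold different without CHX, the highest member of each group and paralog pairs; other members named with values were chosen after these were seen. Members and lists were chosen with earlier results of these data known. Alternatives were the pseudocount, the minimum, treatment of unlisted mRNAs, transcript choice, centring and a read minimum. Python 3.11.15, pandas 2.3.3, numpy 2.4.6, scipy 1.17.1 and matplotlib 3.10.9 were used.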

Additional observations from a re-analysis of the deposited data

Results flagged for a closer look

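SMG5, an NMD adaptor, lay below Suff in Arg- and above it in Met- in the series with CHX, with log2 ratios of -0.65 and 0.89, a difference of -1.54. The medians of all mRNAs compared were -0.23 in Arg- and 0.89 in Met-, so SMG5 in Met- lay at the median. In Met- it could be listed only from 39.0 RPKM, 0.75 times its level in Suff. Each condition had 1 library and both ratios share the Suff library, so the difference between the starvations was not tested.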

How the results depend on the processing

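Of 234 recomputed values for the 28 single-member differences of at least 2-fold, 219 remained at least 2-fold and 0 changed direction. Settings in which a member was no longer compared gave no value and are not among the 234. Apart from transcript choice, no alternative could change a direction, since centring shifted ratios by at most 0.89. The 0 is therefore no test of direction. A minimum of 50 for the mean RPKM changed the counts of members at least 2-fold higher without CHX to 0 in Arg-, 1 in Leu- and 2 in Met-, and with CHX to 3 in Arg- and 1 in Leu-, and the median in Met- without CHX to 0.12, since fewer members were compared. A pseudocount of 0.1 gave 4 higher members in Leu- without CHX. A pseudocount of 10 gave 1 in Arg- without CHX, 2 in Leu- with CHX and a median of 0.80 in Met- with CHX. Requiring 64 reads in both libraries left 0 members lower in Met- without CHX, since EIF4E2 had 55. For the minimum of 50, the pseudocounts and the 64 reads, the shares of all mRNAs were not counted. These changes are therefore not read as particular to the members. Centring on the median of all mRNAs gave 1 member higher, 1 lower and a median of 0.62 in Met- with CHX. Of the 1890 mRNAs compared, 393 were then at least 2-fold higher and 434 lower. Counting unlisted mRNAs as 0 gave 9 lower members and a median of -4.43 in Met- with CHX, which follows from the listing limit of 64 reads. Centring without a minimum, given by group in the report, was chosen after seeing the data. No paired analysis was possible because each condition had 1 library and so no replicates to pair; a fit over both series with the series as a block was not run. Depth limits GSPT2, UPF3A, LTN1 and ANKZF1 most, with 12 to 64 reads per library without CHX, and the whole of Met- with CHX.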
